A study of Mus musculus with 18 samples.

Results

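Gene expression in fracture calluses of old and young mice was compared 5 days after a femur fracture. The 6 arrays used were those whose titles give day 5, and they make up 6 of the 18 arrays of a study of days 1, 3 and 5. The old group held 3 samples from female retired breeders aged 8 months, and the young group held 3 samples from females aged 6 weeks. No treatment, transgene or drug was recorded for either group. Total RNA of dissected callus was hybridised to the Affymetrix Mouse Genome 430 2.0 array. The strain is given as BALB/c in the label of every sample and as c57BI6, read here as C57BL/6, in the design text, and the labels name no litter, housing or pooling. Age, breeding history and skeletal maturity differ together between the groups and cannot be told apart. Of 45101 probe sets, the array's units of measurement, 27746 were bright enough to be tested, and they covered 12921 genes.

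A fracture callus is the tissue that bridges a broken bone. Blood clot and inflammatory cells come first, granulation tissue with fibroblast-like progenitors follows, and cartilage and woven bone are then laid down within it. Cartilage in the callus is later replaced by bone, and dissected callus also takes in torn muscle and marrow. The transcripts of chondrocytes, osteoblasts, marrow cells and muscle are therefore read together in a single sample.

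Very few transcripts passed the test between old and young callus on day 5. Differences are given as old minus young on a log2 scale after 16 was added to each signal and the arrays were quantile normalised, which understates the change of dim genes. In limma's moderated test with Benjamini-Hochberg adjustment, 3 of 27746 probe sets (0.0108%) passed an adjusted p of 0.05. These were Erdr1, Mid1 and the probe set 1439200_x_at, for which no gene is listed, and all 3 were lower in old callus. None was higher in old callus, while 941 probe sets (3.39%) had an unadjusted p under 0.05 in the same fit. That number was 334 without old replicate 3 and 555 without young replicate 3. It was 2775 with the day 5 arrays alone in the fit and 3133 with array weights. The 3 calls held in each of these cases. The 95% interval of the difference lay within 1 log2 unit either way for 10050 of the 12921 genes and within 2 units for 12629. At the level of genes, 2 of 12921 (0.0155%) passed and 549 (4.25%) had an unadjusted p under 0.05, 173 higher and 376 lower. Over all 12921 genes, 6368 differences were above zero and 6553 below. Whether each array holds its own animal is not stated, and the p-values therefore reflect variation among these arrays, part of which may be technical.

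**Figure D1:**
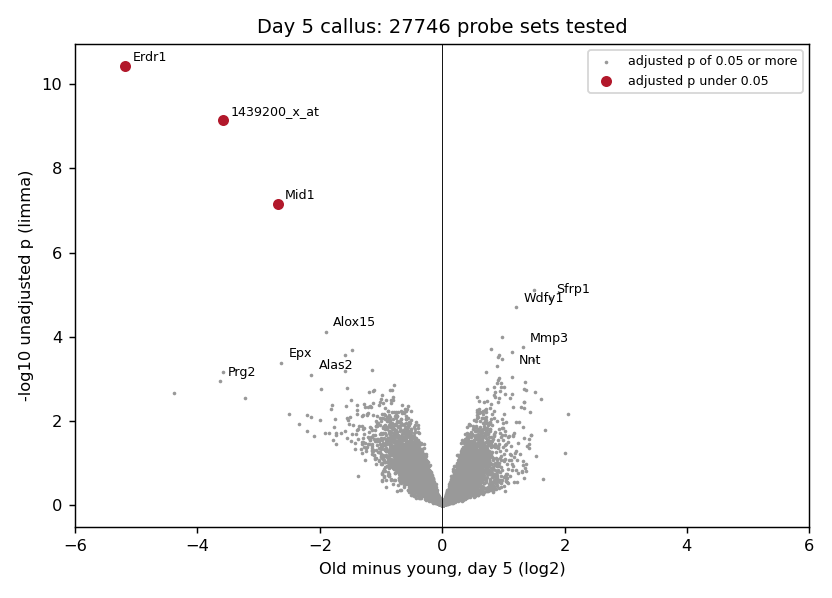
Old minus young difference on day 5 (x axis, log2) against the unadjusted limma p (y axis, as its negative log10) for the 27746 probe sets tested. The 3 red points, all left of zero, are those with an adjusted p under 0.05, and Sfrp1 and Wdfy1 are the named genes furthest up on the right.

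Arrays of the same age correlated at 0.966 to 0.976 in the old group and at 0.955 to 0.972 in the young group, and arrays of different age at 0.941 to 0.976. The ratio of 3′ to 5′ probe sets, a sign of RNA integrity, was 1.6 ± 0.176 for Actb in old callus and 1.44 ± 0.148 in young callus (SD, n = 3). For Gapdh it was 0.859 ± 0.0284 in old callus and 0.87 ± 0.0483 in young callus (SD, n = 3). Markers of cartilage and bone were bright in both groups, and those of muscle and marrow blood cells were present as well. Eif2s3y, Uty and Kdm5d, which are Y-linked, were dimmer than the median of each of the 18 arrays, and Xist was brighter than it on each.

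Erdr1, first described as a secreted factor induced in red cell differentiation and annotated in the mouse reference as a transcribed pseudogene at the end of the X chromosome, showed the largest difference. Its signal was 90, 119 and 34.7 on the old arrays and 3200, 3962 and 2895 on the young arrays. Every old array was far below every young one, and the difference was -5.18 ± 0.36 (SE), a 36.3-fold lower value (adjusted p = 1.01e-06, limma). A dimmer Erdr1 probe set, 1447790_at, read 0.659, 18.3 and 8.71 in old callus and 28, 43.2 and 40.2 in young callus, with a difference of -1.17 ± 0.47 (SE) that did not pass the adjusted test. Both the brighter Erdr1 probe set and 1439200_x_at carry the suffix that Affymetrix gives to probe sets with probes matching other transcripts, so other sources of their signal were not separated here.

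Mid1 encodes a microtubule-associated ubiquitin ligase and lies near Erdr1 at the end of the X chromosome. Its signal of 68.6, 73.2 and 71.4 on the old arrays stood against 678, 724 and 493 on the young arrays. The old arrays were nearly equal to each other and all below the young ones, with a difference of -2.69 ± 0.30 (SE), a 6.43-fold lower value (adjusted p = 0.000653, limma). The unnamed probe set 1439200_x_at read 5.19, 15.2 and 3.89 in old callus and 310, 370 and 340 in young callus. Its groups were equally well separated, at -3.58 ± 0.30 (SE), an 11.9-fold lower value (adjusted p = 9.81e-06, limma).

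The promoter table used here (RefSeq, build GRCm38.p6) lists 3 start sites for Mid1. The window of the most downstream Mid1 start, chrX:169879369-169879668 on the plus strand, is shown because Mid1 is the one protein-coding gene that passed the test. It runs from 250 bases before to 50 bases after the start, and its 13 CG dinucleotides are in capitals.
Mid1: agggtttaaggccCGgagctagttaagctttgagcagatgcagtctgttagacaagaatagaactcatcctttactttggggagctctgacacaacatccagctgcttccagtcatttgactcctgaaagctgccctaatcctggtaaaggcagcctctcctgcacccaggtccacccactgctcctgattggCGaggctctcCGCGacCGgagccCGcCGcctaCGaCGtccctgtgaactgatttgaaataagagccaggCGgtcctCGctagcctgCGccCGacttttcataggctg
The other Mid1 windows hold 2 and 6 CG dinucleotides, and the median over all 32851 promoter windows is 7. A count as high as the 13 shown is common, found in 37.9% of all windows. No array value bears on which start was used.

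G530011O06Rik, a long noncoding RNA between Mid1 and Erdr1 in the RefSeq order, had values on the same side. It read 6.63, 5.05 and 13 in old callus and 63.5, 87.2 and 48.2 in young callus. Its difference of -1.59 ± 0.35 (SE) did not pass on day 5 (adjusted p = 0.555, limma), although the groups did not overlap. Across all probe sets, groups failed to overlap for 15.8%, so that separation alone was common. The remaining neighbours listed there, among them Asmt, were not among the genes tested.

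The same 3 probe sets passed on day 3, in separate arrays, where 16 of 27746 (0.0577%) were called in limma. The day 3 differences were -4.48 ± 0.36 (SE) for Erdr1, -3.82 ± 0.30 (SE) for 1439200_x_at and -2.67 ± 0.30 (SE) for Mid1. G530011O06Rik was called there too, at -2.13 ± 0.35 (SE; adjusted p = 0.0283, limma). On day 1, where 8 probe sets were called higher and 56 lower in old callus, none of the 4 was called. Erdr1 then read 3726, 4886 and 3713 in old callus and 9366, 4314 and 8423 in young callus, and Mid1 read 608, 968 and 783 against 1352, 510 and 470. The 6 old arrays of days 3 and 5 were thus low for Erdr1 and Mid1, and the other 12 arrays, the old day 1 arrays included, were high.

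Whether the age difference itself changed between days was tested within the same fit. Between day 5 and day 1 it differed for 3 of 27746 probe sets (0.0108%), again Erdr1, at -4.56 ± 0.50 (SE; adjusted p = 0.000961, limma), 1439200_x_at, at -3.73 ± 0.42 (SE; adjusted p = 0.000961, limma), and Mid1, at -2.97 ± 0.43 (SE; adjusted p = 0.0193, limma). With 1 day 5 array left out at a time, Erdr1 and 1439200_x_at passed each time, and Mid1 lost its call in 5 of 6 cases (adjusted p from 0.0762 to 0.102, limma), all but the one without young replicate 3. Between day 5 and day 3 it differed for 0 probe sets in limma, with 1791 (6.45%) at an unadjusted p under 0.05. Over all probe sets the median absolute age difference was 0.154 on day 5, 0.234 on day 3 and 0.23 on day 1. Differences over 1 log2 unit numbered 252 (0.908%) on day 5, 679 (2.45%) on day 3 and 744 (2.68%) on day 1.

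**Figure D2:**
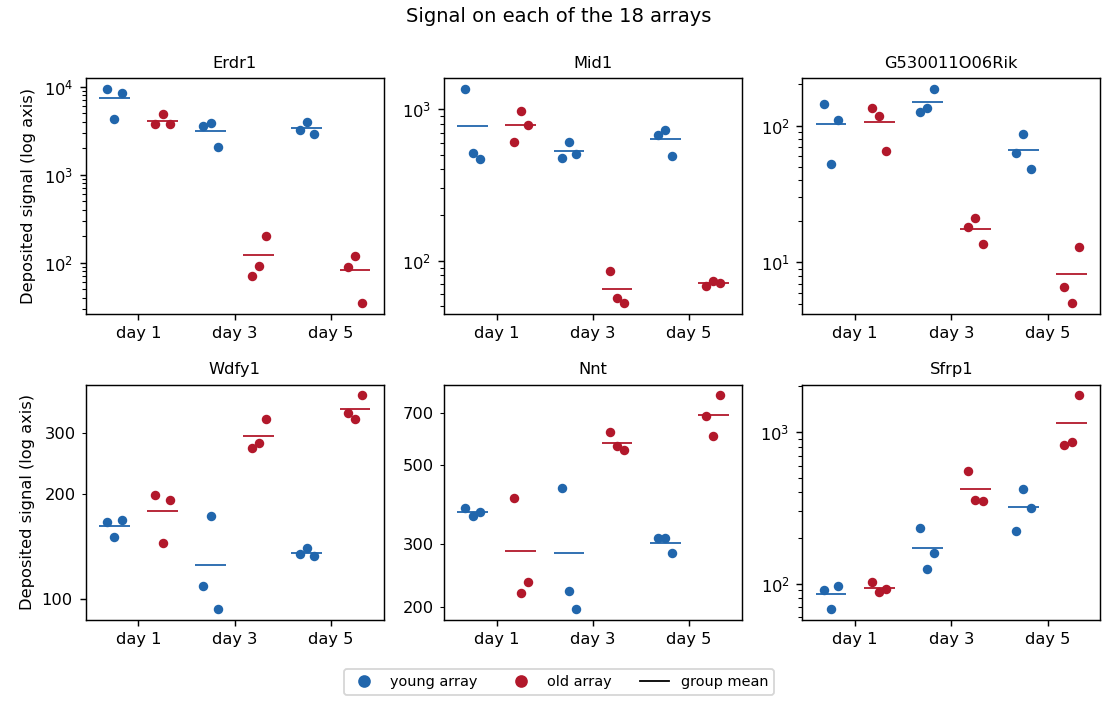
Deposited signal on a log axis for 6 genes on all 18 arrays, by day after fracture, with old arrays in red, young arrays in blue and a line at each group's mean. For Erdr1, Mid1 and G530011O06Rik the old arrays of days 3 and 5 sit below all others of their panel, and for Wdfy1 and Nnt they sit above all others.

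Genes whose expression is known to vary between inbred mouse strains were read because the labels give 2 strains, and 5 of the 8 on this list were measured, Erdr1 among them. Wdfy1, an endosomal adaptor of Toll-like receptor signalling, read 342, 328 and 385 in old callus and 135, 140 and 133 in young callus. Every old array was above every young one, and the difference of 1.21 ± 0.21 (SE) missed the threshold (adjusted p = 0.093, limma). A second Wdfy1 probe set, 1424749_at, gave 1.49 ± 0.24 (SE; adjusted p = 0.054, limma) on day 5 and was called on day 3 at 1.42 ± 0.24 (SE; adjusted p = 0.0342, limma). Wdfy1 passed in 7 of 19 alternative analyses on day 5, among them the signals as deposited (adjusted p = 0.0165, limma).

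Nnt, the mitochondrial transhydrogenase that makes NADPH, read 687, 604 and 785 in old callus and 313, 311 and 283 in young callus. The old arrays were again all higher, at 1.14 ± 0.25 (SE; adjusted p = 0.527, limma), and on day 1 the difference was -0.37 ± 0.25 (SE). Cd59a, an inhibitor of the complement attack complex, read 305, 305 and 334 against 183, 191 and 187, a difference of 0.69 ± 0.22 (SE) that did not pass. Alad, an enzyme of haem synthesis, differed by -0.78 ± 0.33 (SE), with overlapping groups. H2-Ea, a class II histocompatibility gene that C57BL/6 mice do not express and BALB/c mice do, was above the array median on 0 of 18 arrays with any of its 3 probe sets. Whether old and young mice, or mice of different days, came from different stocks was not tested, and age and stock cannot be told apart with these arrays.

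No cartilage gene passed the test. Of 20 measured chondrocyte genes, 0 passed in limma and 0 had an unadjusted p under 0.05, and the median difference was -0.04, against 0.00 over all genes. Without old replicate 3 the chondrocyte median was 0.09. Col2a1, the main collagen of cartilage, read 4374, 7065 and 3364 in old callus and 5273, 5267 and 7463 in young callus. The groups overlapped, and the difference of -0.44 had a 95% interval from -1.73 to 0.86. Acan, the large aggregating proteoglycan of cartilage, had a difference of 0.18 with an interval from -0.79 to 1.14. Sox9, the transcription factor that specifies chondrocytes, had 0.05 with an interval from -0.68 to 0.78. All 20 intervals lay within 2 log2 units of zero, and 7 lay within 1, while for the other 13 a difference of more than 1 log2 unit was within the error of 3 arrays a group.

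Genes of hypertrophic cartilage, the mature zone that mineralises before bone replaces it, gave the same picture. None of the 10 measured passed in limma, 0 had an unadjusted p under 0.05, and the median was 0.07, or -0.15 without young replicate 2. Col10a1, the collagen that defines this zone, read 191, 544 and 91.6 in old callus and 353, 32.6 and 230 in young callus. Its arrays spread more within each group than between groups, and the interval of its difference ran from -1.10 to 2.01. Mmp13, the collagenase of this zone, differed by 0.07 with an interval from -0.97 to 1.11.

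Bone genes likewise did not pass. The list of 17 osteoblast and bone matrix genes had a median of -0.14, 13 members were below zero, and 1 had an unadjusted p under 0.05 in limma. That gene was Mepe, a phosphoprotein of osteocytes, which read 51.2, 125 and 52.5 in old callus and 180, 193 and 145 in young callus, a difference of -0.94 ± 0.34 (SE). Sp7, the transcription factor that commits cells to the osteoblast lineage, read 412, 547 and 197 against 585, 380 and 459. Its groups overlapped, and the interval of its difference ran from -1.12 to 0.44. Col1a1, the main collagen of bone, differed by -0.14 with an interval from -0.88 to 0.60, and Ibsp, a bone sialoprotein, by -0.01 with an interval from -0.81 to 0.79. Leaving out 1 day 5 array moved the list median between -0.42, without young replicate 2, and 0.04, without old replicate 3, and on day 1 it was -1.07.

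Sost, the osteocyte inhibitor of Wnt signalling, read 35.2, 45 and 15.4 in old callus and 68.1, 65.3 and 83.9 in young callus, with a difference of -0.78 ± 0.38 (SE) that did not pass. Of 14 osteoclast genes 0 passed in limma, and the median was -0.12. Ctsk, the collagen-degrading protease of osteoclasts, differed by 0.03 with an interval from -0.66 to 0.71. Acp5, the acid phosphatase that marks these cells, differed by -0.30 with an interval from -1.06 to 0.46.

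Genes of fibroblasts and granulation tissue matrix had small positive values in old callus. Of 26 measured, 0 passed in limma, 21 were above zero, 2 had an unadjusted p under 0.05, and the median was 0.26, or 0.13 without young replicate 2. In 10 of the 26 every old array was above every young one and in 0 the reverse, against 918 (7.1%) above and 1275 (9.87%) below over all 12921 genes. Ogn, a small leucine-rich proteoglycan of bone and fibrous tissue, read 3478, 3327 and 6241 in old callus and 2376, 2229 and 2121 in young callus. The old arrays were all higher, with replicate 3 the highest, and the difference was 0.98 ± 0.33 (SE). Aspn, a related proteoglycan that binds TGF-beta, read 3088, 3576 and 5048 against 2593, 2002 and 2320, with a difference of 0.80 ± 0.32 (SE). Neither passed the adjusted test.

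Postn, a matrix protein of periosteum and healing tissue, differed by 0.54 ± 0.40 (SE), and Lox, which cross-links collagen, by 0.53 ± 0.31 (SE). Enzymes that modify and fold collagen had a median of 0.14 over 20 genes, with 15 above zero and 0 passing in limma, and the median was -0.03 without young replicate 2. Plod2, which hydroxylates collagen for cross-links, read 3063, 3047 and 3502 in old callus and 2151, 1978 and 2917 in young callus. The old arrays were the higher ones, and the difference was 0.50 ± 0.27 (SE). The list medians of the fibroblast genes were -0.74 on day 1 and 0.91 on day 3, so that the day 5 value was the smallest of the 3 in size.

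Prg4 and Col14a1, a lubricating proteoglycan of joints and tendon sheaths and a collagen of fibrous tissue, had larger values than most matrix genes. Prg4 read 1337, 1280 and 1809 in old callus and 245, 875 and 701 in young callus, and Col14a1 read 1727, 1137 and 1908 against 516, 829 and 493. Old arrays were above young arrays for both, at 1.45 ± 0.57 (SE) and 1.42 ± 0.59 (SE), and neither passed.

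**Figure D3:**
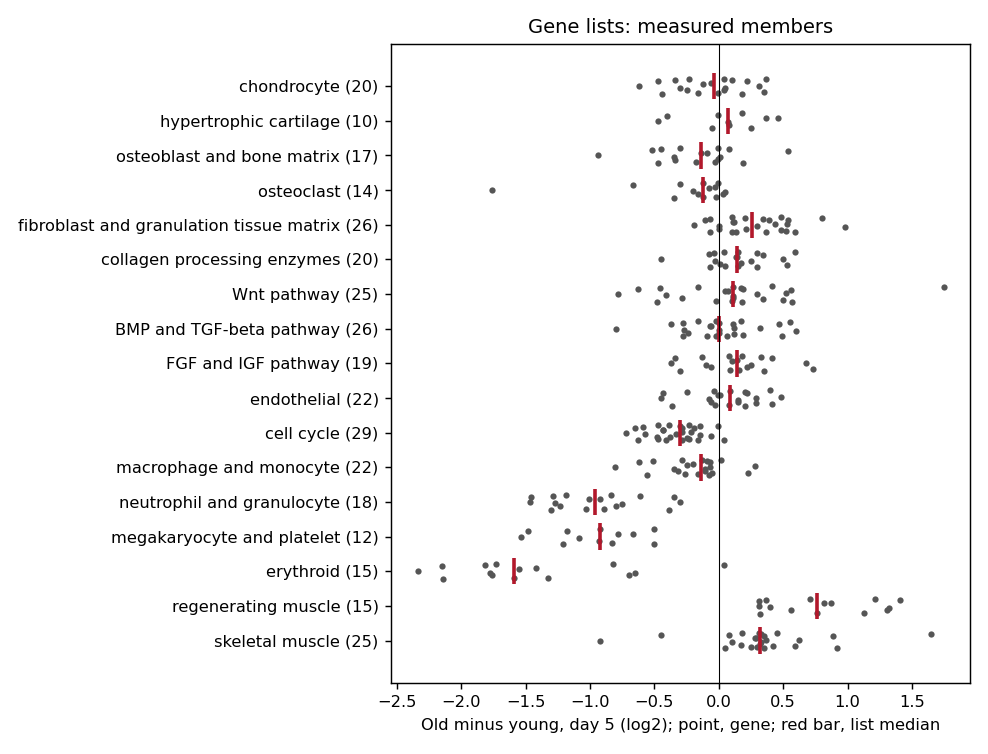
Old minus young difference on day 5 (x axis, log2) for each measured gene of 17 lists (1 point a gene, the number measured in brackets), with a red bar at the list median. The cartilage and bone lists centre near zero, and the erythroid, neutrophil and platelet lists centre at -1.59, -0.96 and -0.92.

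Among the Wnt, BMP and FGF genes the highest value was that of Sfrp1, a secreted protein that binds Wnt ligands. It read 821, 855 and 1750 in old callus and 224, 418 and 315 in young callus. All old arrays were above all young ones, and the difference of 1.75 ± 0.29 (SE), a 3.37-fold higher value, missed the threshold (adjusted p = 0.0675, limma). It passed in 3 of 19 alternative analyses, with the signals as deposited (adjusted p = 0.0494), with 64 in place of 16 added to each signal (adjusted p = 0.0282) and with array weights (adjusted p = 0.00118, all limma), and its adjusted p ranged up to 0.936. The 4 other Sfrp1 probe sets gave 1.35, 0.53, 1.61 and 1.04. On day 3 the difference of the first probe set was 1.15 ± 0.29 (SE) and on day 1 it was -0.06 ± 0.29 (SE). The 4 other probe sets, in the same order, gave -0.14, 1.67, -0.14 and -0.05 on day 1, and none was called.

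Of the 25 Wnt pathway genes measured, 0 passed in limma, Sfrp1 was the 1 with an unadjusted p under 0.05, and the median was 0.11. The related Sfrp2 differed by 0.50 ± 0.39 (SE), and Dkk1, which blocks the Wnt co-receptor, by -0.63 ± 0.34 (SE). Among ligands and targets, Wnt5a differed by 0.34 ± 0.35 (SE) and Axin2, a common readout of the pathway, by 0.11 ± 0.33 (SE).

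In the FGF and IGF list, 0 of 19 genes passed in limma and the median was 0.14. Igf1, a growth factor for cartilage and bone, read 2470, 2032 and 2656 in old callus and 1304, 1487 and 1809 in young callus. Old arrays were above young arrays with each of its 4 probe sets, whose differences were 0.68, 0.91, 0.70 and 0.91, and none passed. Fgf7, a fibroblast-derived growth factor for epithelium, read 215, 306 and 450 against 175, 158 and 204, a difference of 0.73 ± 0.33 (SE).

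In the BMP and TGF-beta list, 0 of 26 passed in limma and the median was 0.00. Tgfb1, a growth factor released by platelets and matrix, read 724, 818 and 416 in old callus and 1301, 945 and 1050 in young callus, a difference of -0.80 ± 0.27 (SE). Fst, a secreted activin and BMP antagonist, read 263, 269 and 366 against 193, 191 and 183, a difference of 0.60 ± 0.26 (SE). Bmp2, which starts callus formation, differed by 0.06 with an interval from -1.05 to 1.17, and so was poorly resolved.

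Matrix metalloproteinases gave values in both directions, and 0 of 21 protease and inhibitor genes passed in limma. Mmp3, which degrades proteoglycans, read 92.7, 129 and 168 in old callus and 20.7, 47 and 31.7 in young callus. Its old arrays were all higher, at 1.32 ± 0.28 (SE; adjusted p = 0.523, limma). Mmp12, the macrophage elastase, read 43.3, 51.5 and 95.5 against 547, 342 and 194, all lower, at -1.98 ± 0.53 (SE). Macrophage genes in general had a median of -0.14 over 22 measured, with 19 below zero and 0 passing in limma. In 7 of the 22 every old array was below every young one and in 0 the reverse, against 1275 of 12921 genes (9.87%) below over all. Their values ran from -0.81, for Ccr2, to 0.28. Csf1r, the receptor macrophages depend on, differed by -0.09 with an interval from -0.48 to 0.29.

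Markers of marrow blood cells had the lowest medians of the 46 lists, although none of these genes passed. Fewer cells of a type and less RNA per cell cannot be told apart in these samples. Of 15 measured erythroid genes 0 passed in limma, 12 had an unadjusted p under 0.05 with a lower value in old callus and 0 with a higher one, and the median was -1.59. Over all 12921 genes these counts were 376 lower and 173 higher, with a median of 0.00. In only 2 of the 15 erythroid genes was every old array below every young one, against 1275 of 12921 genes (9.87%) over all.

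Alas2, the first enzyme of haem synthesis in red cells, read 876, 465 and 125 in old callus and 1526, 1671 and 1909 in young callus. The groups did not overlap, and the difference was -2.14 ± 0.53 (SE; adjusted p = 0.932, limma). Slc4a1, the anion exchanger of the red cell membrane, read 1076, 229 and 20.7 against 460, 1289 and 2670. Here old replicate 1 was above young replicate 1, and the difference was -2.34 ± 0.83 (SE), with old replicate 3 the lowest array and young replicate 3 the highest. Hemgn, a nuclear protein of erythroid precursors, had the same order, at 390, 64 and 25.7 against 234, 578 and 1135. Without old replicate 3 the list median was -1.17 and 2 of 15 genes had an unadjusted p under 0.05.

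The promoters of Alas2 and Hemgn, 2 of the erythroid genes described above, are shown as examples that hold the motif searched. In the erythroid list 14 of 15 genes were below zero, so low values do not set these 2 apart. The motif searched was AGATAA, a core that GATA factors are known to bind in erythroid genes, on both strands, so that it also reads TTATCT. It was found in 5 of the 10 measured erythroid genes with a promoter window, and in 11.2% of all 32851 windows of 300 bases. The first share counts genes, which can have several windows, and the second counts windows, so they are not directly comparable. Ermap, Klf1, Sptb, Tfrc and Rhag held no match to AGATAA. Other forms of the GATA motif were not searched, so a window without a match may still hold one. The windows are from RefSeq (GRCm38.p6), run from 250 bases before to 50 bases after the start, and carry the motif in capitals. Alas2 lies at chrX:150547167-150547466 on the plus strand and Hemgn at chr4:46404134-46404433 on the minus strand.
Alas2: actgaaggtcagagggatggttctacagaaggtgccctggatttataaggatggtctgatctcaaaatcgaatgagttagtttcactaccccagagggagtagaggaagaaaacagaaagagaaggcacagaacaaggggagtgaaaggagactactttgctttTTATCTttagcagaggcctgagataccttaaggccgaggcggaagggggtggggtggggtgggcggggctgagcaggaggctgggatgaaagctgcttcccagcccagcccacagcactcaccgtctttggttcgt
Hemgn: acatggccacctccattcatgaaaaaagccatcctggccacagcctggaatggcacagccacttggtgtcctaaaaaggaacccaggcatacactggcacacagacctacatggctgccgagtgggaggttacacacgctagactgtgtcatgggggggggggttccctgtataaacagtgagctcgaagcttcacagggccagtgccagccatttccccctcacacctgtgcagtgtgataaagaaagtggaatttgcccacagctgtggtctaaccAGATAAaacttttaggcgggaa
A match is a stretch of letters and was not tested for binding here.

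Neutrophil and granulocyte genes had a median of -0.96 over 18 measured, all 18 below zero, 11 with an unadjusted p under 0.05 and 0 passing in limma. Over all 12921 genes 6553 were below zero, and 376 were lower at that p. In 10 of the 18 every old array was below every young one, against 1275 of 12921 genes (9.87%) over all. Mpo, the peroxidase of neutrophil granules, read 2120, 866 and 748 in old callus and 2398, 3087 and 3240 in young callus. Every old array was lower, at -1.46 ± 0.52 (SE), although old replicate 1 was close to young replicate 1. Mmp8, the neutrophil collagenase, read 806, 741 and 247 against 1307, 1557 and 1561, at -1.47 ± 0.57 (SE). S100a8, an abundant calcium-binding protein of mature neutrophils, differed by -0.39 ± 0.17 (SE), less than these granule genes. Without old replicate 3 the median was -0.71 and 0 genes had an unadjusted p under 0.05.

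Platelets and their marrow precursors, the megakaryocytes, had low values as well. In 11 of 12 megakaryocyte and platelet genes every old array was below every young one, against 1275 of 12921 genes (9.87%) over all, and the median was -0.92 with 8 at an unadjusted p under 0.05 and 0 passing in limma. Ppbp, a chemokine stored in platelets, read 1606, 1112 and 1015 in old callus and 2661, 3215 and 3686 in young callus, a difference of -1.48 ± 0.43 (SE). Pf4, the other main platelet chemokine, read 2156, 2871 and 2029 against 3753, 3477 and 4335, a difference of -0.83 ± 0.25 (SE). The old arrays were lower for both, and without old replicate 3 the list median was -0.82 and 3 genes had an unadjusted p under 0.05.

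Epx, Prg2 and Alox15 were on no list. They were among the genes with the lowest unadjusted p in limma whose arrays did not overlap, and are named for that. Other genes met the same rule, among them Aldh2, Sipa1 and Was, and are not described here. Over all, the arrays of 1275 of 12921 genes (9.87%) did not overlap in that direction. Epx, the eosinophil peroxidase, read 94.1, 54.4 and 7.86 in old callus and 432, 384 and 399 in young callus, at -2.63 ± 0.61 (SE; adjusted p = 0.642, limma). Prg2, the major basic protein of eosinophils, read 463, 153 and 18.6 against 1906, 1888 and 1763, at -3.63 ± 0.93 (SE). Alox15, a lipoxygenase of eosinophils and some macrophages, read 26.2, 12.2 and 1.13 against 126, 98.4 and 74.2, at -1.90 ± 0.37 (SE; adjusted p = 0.301, limma). Old callus was below young callus on every array for all 3, which the rule that named them required. Within the old group replicate 3 was the lowest each time. In the normalised values, old arrays were also all below young ones on days 1 and 3 for Epx, on day 3 for Prg2 and on day 1 for Alox15. On day 1 the differences were -1.46 ± 0.61 (SE) for Epx, -1.31 ± 0.93 (SE) for Prg2 and -1.34 ± 0.37 (SE) for Alox15. On day 3 they were -1.62 ± 0.61 (SE), -2.41 ± 0.93 (SE) and -0.97 ± 0.37 (SE) in that order. None passed on either day.

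B and plasma cell genes had a median of -0.64 over 18 measured, with 4 at an unadjusted p under 0.05 and 0 passing in limma. In 11 of the 18 every old array was below every young one, against 1275 of 12921 genes (9.87%) over all. Vpreb1, part of the pre-B cell receptor, read 46.6, 4.38 and 1.64 in old callus and 72.9, 139 and 53.1 in young callus. The groups did not overlap, and its difference was -1.74 ± 0.76 (SE).

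The spread among arrays is given by list scores. A list score is the mean, over its genes, of each gene's deviation from its mean on the 6 arrays. The erythroid score was 0.32, -0.86 and -1.63 on the old arrays and -0.23, 0.92 and 1.49 on the young arrays. The groups overlapped, with old replicate 1 above young replicate 1. For neutrophil genes the scores were 0.11, -0.48 and -1.05 against 0.31, 0.43 and 0.68, and for platelet genes they were -0.29, -0.44 and -0.72 against 0.40, 0.36 and 0.69. For B and plasma cell genes they were 0.06, -0.24 and -0.73 against 0.48, 0.29 and 0.13. Old replicate 3 was the lowest of the 6 arrays in all 4 lists, and young replicate 3 was the highest in the erythroid, neutrophil and platelet lists but the lowest young array in the B cell list. The summed signal of the 15 erythroid genes ran from 2666 to 8327 in old callus and from 6644 to 19196 in young callus. How much marrow each dissection took in was not tested.

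**Figure D4:**
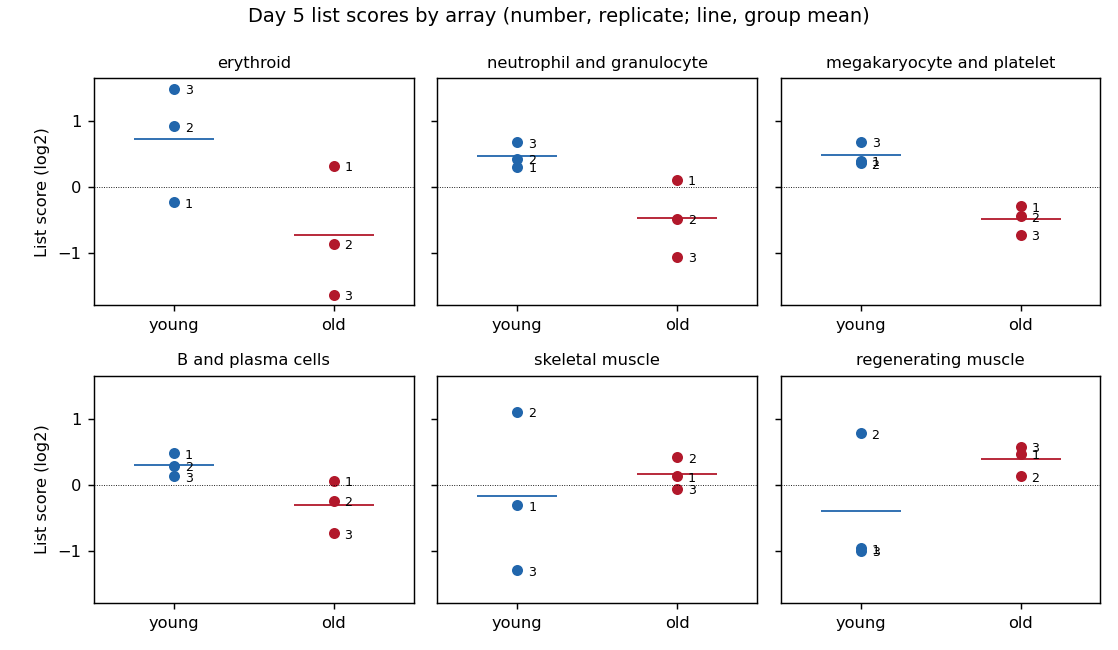
List scores on the day 5 arrays (y axis, log2 deviation averaged over the genes of a list) for young (blue) and old (red) callus, with the replicate number beside each point and a line at the group mean. Old replicate 3 is the lowest point of the erythroid, neutrophil, platelet and B cell panels, and young replicate 2 is the highest of both muscle panels.

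Genes of dividing cells had slightly negative values. Of 29 cell cycle genes 28 were below zero, the median was -0.30, 3 had an unadjusted p under 0.05 and 0 passed in limma. Over all 12921 genes 6553 were below zero. In 12 of the 29 every old array was below every young one, against 1275 of 12921 genes (9.87%) over all. Mcm5, a subunit of the replicative helicase, read 849, 631 and 755 in old callus and 1064, 1005 and 1419 in young callus, a difference of -0.65 ± 0.29 (SE). Mki67, the usual marker of cycling cells, read 1494, 1146 and 1432 against 1410, 1642 and 2525, so that the groups overlapped. Its interval ran from -1.19 to 0.25. Cdkn1a, an inhibitor of cyclin-dependent kinases often read as a sign of senescence, differed by 0.23 with an interval from -0.26 to 0.73, and 0 of 11 senescence genes passed in limma.

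Muscle genes spread widely among the young arrays. Regenerating muscle genes had a median of 0.76, all 15 measured members were above zero, 1 had an unadjusted p under 0.05 and 0 passed in limma. Over all 12921 genes 6368 were above zero. In 1 of the 15 every old array was above every young one, against 918 of 12921 genes (7.1%) over all. Myh3, the embryonic myosin heavy chain, read 2559, 1626 and 3918 in old callus and 601, 2985 and 687 in young callus. Young replicate 2 lay within the old range and young replicates 1 and 3 far below it, and the interval of the difference ran from -0.35 to 2.98. Chrna1, a subunit of the muscle acetylcholine receptor, read 1072, 806 and 1404 against 255, 928 and 249, again with young replicate 2 within the old range and young replicates 1 and 3 below it. The median of this list was 1.36 without young replicate 2 and 0.47 without young replicate 3. For the 25 skeletal muscle genes the median of 0.32 became 0.94 without young replicate 2 and -0.26 without young replicate 3, so its direction depended on that array. The amount of muscle in each dissection was not tested.

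Complement genes had a median of 0.47 over 10 measured, with 0 passing in limma, and the median was 0.25 when a gene's probe sets were averaged. In 5 of the 10 every old array was above every young one, against 918 of 12921 genes (7.1%) over all. C1s1, a protease of the classical pathway, read 697, 604 and 1001 in old callus and 369, 392 and 274 in young callus, at 1.10 ± 0.60 (SE), and Serping1, its inhibitor, differed by 0.80 ± 0.41 (SE). Ccl8, a chemokine for monocytes, read 1189, 1330 and 2075 against 401, 846 and 761, at 1.24 ± 0.54 (SE). The 20 cytokine and chemokine genes had a median of 0.12, with 0 passing in limma, and that median was -0.07 without old replicate 3.

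Clock genes were named by the rule through Per2, a repressor of the circadian clock, which read 24.6, 34.7 and 41.6 in old callus and 98.1, 125 and 113 in young callus. The old arrays were all lower, at -1.15 ± 0.28 (SE; adjusted p = 0.835, limma). A second Per2 probe set, 1457350_at, gave -0.51 ± 0.29 (SE). Cry1, the partner of Per2, differed by -0.60 ± 0.19 (SE), and Npas2, an activator of the clock, by 0.86 ± 0.38 (SE). None of the 15 clock genes passed in limma, and the hour at which tissue was taken is not in the labels. Mt2, a metallothionein induced by metals and glucocorticoids, read 2125, 1510 and 2211 against 480, 1327 and 724, at 1.37 ± 0.37 (SE). Rian, a noncoding RNA of an imprinted cluster, read 135, 146 and 175 against 60, 86.4 and 46.6, at 0.94 ± 0.26 (SE). The other tested Rian probe sets gave only 0.22, 0.25 and 0.08, with overlapping groups. Ptn, a growth factor of developing bone and cartilage, differed by 0.58 ± 0.22 (SE).

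Lists of basic cell functions and of vessels had medians near zero. The 12 ribosomal protein genes had a median of 0.03, and all 12 intervals lay within 1 log2 unit of zero. Oxidative phosphorylation genes had a median of -0.01 over 17 measured, endothelial genes 0.09 over 22, and heat shock and unfolded protein response genes -0.07 over 18, with 0 passing in limma in each. Without young replicate 2 the oxidative phosphorylation median was 0.15 and the endothelial median -0.05.

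**Figure D5:**
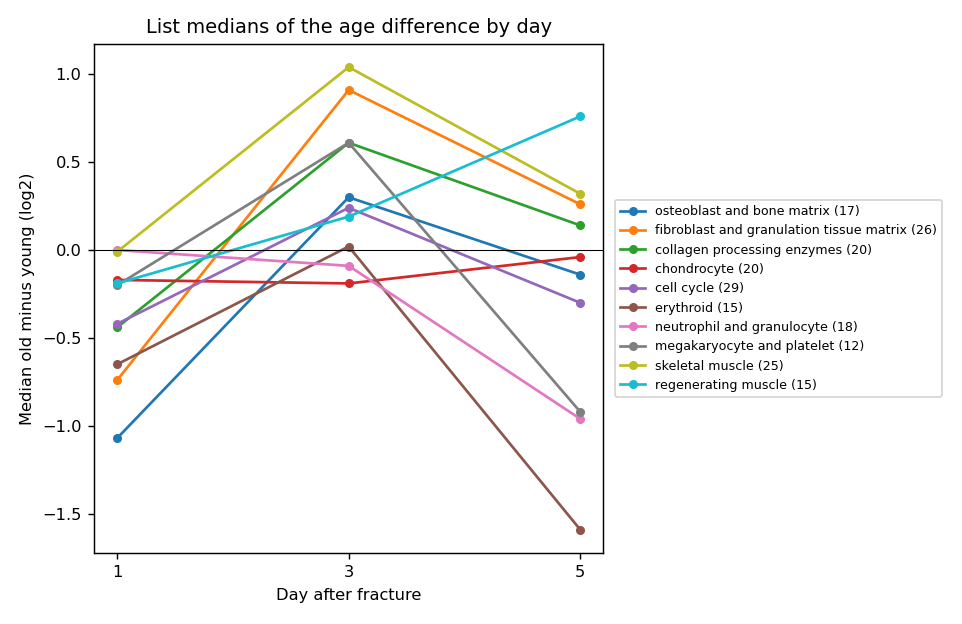
Median old minus young difference (y axis, log2) of 10 gene lists on days 1, 3 and 5 (x axis), with the number of measured genes in brackets. On day 5 the bone, cartilage and matrix medians lie between -0.14 and 0.26, and the erythroid, neutrophil and platelet medians lie at or below -0.92.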

How the data were processed

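Callus RNA was measured on 18 Affymetrix arrays, 3 for each age and day. The deposited intensity of each probe set is a linear signal, and the authors scaled each array to a trimmed mean of 150, as the values show; the algorithm is not given in the sources used here, and no depth applies to arrays. In R 4.3.3 with limma 3.58.1, 16 was added, log2 taken and arrays quantile normalised, because their log2 medians spanned 0.77, more than 0.5. Probe sets above the array median on at least 3 of 18 arrays, controls left out, were fitted in 1 model of 6 group means (lmFit, eBayes with trend, 17.3 degrees of freedom), with Benjamini-Hochberg adjustment over 27746 probe sets. A gene is its brightest tested probe set. The platform table named 1 gene for 34958 probe sets, several for 932 and none for 9211; 34754 symbols were updated through RefSeq.

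Members and the 46 gene lists were chosen with earlier results of these data known. Named genes were the 15 each way with the largest called difference, filled by lowest p among genes whose arrays do not overlap, up to 4 members a list with the largest difference, and strain and sex checks; other members are named for their role. Data were simulated on 27746 probe sets with this day 5 comparison, with 50 probe sets changed at each size. Recovered were 1 of 50 differences of 0.5, 15 of 50 of 1, 42 of 50 of 2 and 49 of 50 of 3 log2 units, with 4 false calls. Many more probe sets passed there than in the real data, which eases the adjusted threshold, so these rates may overstate recovery here. Noise was drawn separately for each probe set, without shifts shared by the genes of an array. Same-numbered arrays correlated at 0.0402, 0.0651 and -0.0297 in their deviations from group means. These values show no pairing by number, but with 3 arrays a group they cannot exclude one. Alternatives were scaling, pseudocount, filter, probe set class, trend, weights, replicate block, arrays in the fit and leaving out each array.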

Additional observations from a re-analysis of the deposited data

Results flagged for a closer look

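The age difference of 3 probe sets was not the same on day 5 as on day 1, by limma's test of the difference between the days. For Erdr1 the old minus young value was -5.18 on day 5 and -0.62 on day 1, a change of -4.56 (log2; adjusted p = 0.000961, limma). For 1439200_x_at it was -3.58 and 0.15, a change of -3.73 (adjusted p = 0.000961, limma). For Mid1 it was -2.69 and 0.28, a change of -2.97 (adjusted p = 0.0193, limma), which passed in 1 of 6 fits with a day 5 array left out. All 6 old arrays of days 3 and 5 were below the 3 old arrays of day 1 in each case.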

How the results depend on the processing

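In each of 18 alternatives every one of the 3 day 5 calls that was still tested was called again. The number called on day 5 was 7 with the signals as deposited and with 64 added, 6 with arrays centred on their medians and with the day 5 arrays alone, 5 without the 6 day 3 arrays, 78 with array weights (46 higher, 32 lower) and 1 without probe sets of the classes _s_at and _x_at, where Mid1 was the one left to test. It was 3 each time an array was left out. Probe sets at an unadjusted p under 0.05 numbered 941 as reported and 334 without old replicate 3. They numbered 555 without young replicate 3 and 1072 without old replicate 1. With the day 5 arrays alone there were 2775, and with array weights 3133. The day 5 to day 1 difference was called for 7 probe sets with weights, 9 without day 3 arrays, 1 without those classes and 2 to 3 with an array left out, and 2 with 64 added, Mid1 being the one lost. The day 5 to day 3 difference was called for 4806 with weights and 1 with the arrays of the groups compared alone. List genes called on day 5 numbered 1, and 13 with weights, 4 as deposited, 3 with 64 added, 2 with centred arrays, with gene means, with day 5 arrays alone and without day 3 arrays, and 0 without those classes. The replicate block gave 3 calls on day 5, 3 for the day 1 contrast and 0 for the day 3 contrast, and 1 of 3 replicate numbers correlated best with its own. The cause of these changes was not tested. With 3 arrays a group and the spread estimated over all 18 arrays, half-widths of 95% intervals on day 5 had a median of 0.572. The precision of dim probe sets is limited by the number of arrays.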
